A study of Mus musculus with 3 samples.

Results

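The 8 genes of the troponin subunits (Tnnc1, Tnnc2, Tnni1, Tnni2, Tnni3, Tnnt1, Tnnt2 and Tnnt3) were examined by bulk RNA-seq in 3 mouse myoblast lines, numbered 66, 67 and 72. The members were chosen by name, and they are 8 of 35562 genes to which transcripts of the deposited tables could be matched. All 8 were matched, through 85 listed transcripts. The lines were grown from muscle stem cells of mouse-mouse chimeras that had been made with iPSCs of the genotype Dmdmdx; Pax7-nGFP, in which CRISPR/Cas9 had been used to correct the mdx mutation of dystrophin by skipping the mutated exon. Pax7-nGFP is a nuclear green fluorescent reporter of the satellite cell factor Pax7, and the myoblasts, sorted for it, are the cultured and dividing progeny of these cells. All 3 libraries carry the same genotype and the same editing, so they form 1 condition with n = 3 lines, and no unedited or unaffected library was compared here. The labels do not give the chimera or the age of the animal behind each line, and nothing in them says how far the lines are independent, so every SD and p-value measures only the spread between these 3 lines.

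Troponin is the calcium switch of the thin filament in striated muscle. Troponin C binds calcium, troponin I holds back the interaction of actin and myosin at rest, and troponin T anchors the complex to tropomyosin. Each subunit is encoded by separate genes for fast skeletal, slow skeletal and cardiac muscle, except that slow skeletal and cardiac muscle share the troponin C gene Tnnc1. Developing skeletal muscle is known to use slow and cardiac genes alongside fast genes, and the troponin T genes are known for alternative splicing that changes with age.

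The exons below are shown because the troponin T forms of these lines differed in whether they held them, or, for the Tnnt2 and Tnnt1 exons of 41 bases, for comparison with the alternative Tnnt3 exons. They were read from the GENCODE M21 transcripts, and coordinates are on GRCm38. The last alternative stretch of Tnnt3 is a pair of mutually exclusive exons of 41 bases, of which the downstream exon is known as the fetal and neonatal form and the upstream exon as the adult form. Tnnt2 and Tnnt1 each have a single exon of 41 bases at the same place, just before the last exon. Capitals mark the bases that differ from the downstream Tnnt3 exon.
Tnnt3 downstream exon, chr7:142514326-142514366, plus strand: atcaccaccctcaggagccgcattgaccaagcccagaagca
Tnnt3 upstream exon, chr7:142513665-142513705, plus strand: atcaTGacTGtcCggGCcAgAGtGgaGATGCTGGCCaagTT
Tnnt2 exon, chr1:135851696-135851736, plus strand: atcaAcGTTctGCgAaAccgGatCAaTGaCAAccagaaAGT
Tnnt1 exon, chr7:4507383-4507423, minus strand: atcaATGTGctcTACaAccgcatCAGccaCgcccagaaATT
The upstream Tnnt3 exon matched the downstream Tnnt3 exon at 18 of 41 bases. The Tnnt1 exon matched the downstream Tnnt3 exon at 25 bases and the upstream at 13. The Tnnt2 exon matched them at 22 and 15 bases. Nearer the 5′ end, 4 further exons are shown in capitals with 12 neighbouring bases of the transcript on each side in lower case.
Tnnt3 first exon of 18 bases, chr7:142502740-142502757, plus strand: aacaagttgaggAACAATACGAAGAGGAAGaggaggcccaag
Tnnt3 exon of 39 bases, chr7:142507750-142507788, plus strand: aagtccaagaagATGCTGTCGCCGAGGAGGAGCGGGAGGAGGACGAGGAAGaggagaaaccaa
Tnnt2 exon of 30 bases, chr1:135843785-135843814, plus strand: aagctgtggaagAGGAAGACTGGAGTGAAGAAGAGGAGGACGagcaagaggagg
Tnnt1 exon of 33 bases, chr7:4513581-4513613, minus strand: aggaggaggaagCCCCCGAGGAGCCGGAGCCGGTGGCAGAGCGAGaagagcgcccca
The exons of the last group encode parts of the variable N-terminal region of troponin T, which is known to be rich in acidic residues.

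Levels are given as TPM (estimated counts divided by the effective length of each transcript and scaled to 1000000 per library), summed over the transcripts of a gene. TPM is per length, so genes can be compared with each other on it. The libraries held between 66972426 and 73274315 estimated counts. A count of 0 allows up to 3 counts, a limit that covers counting error only. Of 10 myoblast markers, all were above 10 TPM in every line, with Pax7 between 136 and 154 TPM and Myod1 between 579 and 791 TPM. Of 10 markers of blood, vessel, fibroblast, smooth muscle and nerve cells, Lum and Adgre1 were listed at 0 in every line, and the list summed to between 4.90 and 6.92 TPM.

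Troponin C was mostly Tnnc1. Tnnc1 (chromosome 14, 31208312 to 31211729), the slow skeletal and cardiac gene, had 225, 299 and 316 TPM in lines 66, 67 and 72 (mean 280 ± 48.3 TPM, SD, n = 3). Tnnc2 (chromosome 2, 164777161 to 164779967), the fast skeletal gene, had 54.7, 111 and 126 TPM in the same order and a mean of 97.3 ± 37.6 TPM. The values of the genes did not overlap, and for both line 66 was the lowest. Tnnc1 made up 75.0% ± 4.82 and Tnnc2 25.0% ± 4.82 of the troponin C TPM. The Tnnc2 level is uncertain, because 59.0% of its 31-base words lie in Ube2c, a cell division gene on the opposite strand, and none in Ube2c on the same strand. The library kit keeps strand, and the strand setting of the quantification is not given in the sources used here. Ube2c had 109, 178 and 156 TPM, so that it was also lowest in line 66, and its part in the Tnnc2 values was not tested. Tnnc1 overlaps Nisch on the opposite strand, which had between 305 and 331 TPM, and 93.7% of the Tnnc1 words were in no other gene.

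Troponin I was mostly Tnni1, the slow skeletal gene (chromosome 1, 135779434 to 135810989). It had 114, 147 and 176 TPM in lines 66, 67 and 72 (mean 146 ± 31.3 TPM). Tnni2 (chromosome 7, 142441808 to 142444410), the fast skeletal gene, had 31.4, 61.2 and 72.4 TPM, and a mean of 55.0 ± 21.2 TPM. Tnni3 (chromosome 7, 4518305 to 4524229), the cardiac gene, had 3.58, 2.42 and 1.71 TPM, which rest on 104, 61 and 47 estimated counts. It was the lowest of the 8 genes in every line and the only member that was highest in line 66 and lowest in line 72. Tnni1 made up 72.2% ± 3.72, Tnni2 26.4% ± 4.57 and Tnni3 1.41% ± 0.892 of the troponin I TPM (SD, n = 3). The Tnni3 share was 0.918% without line 66 and 0.891% over protein-coding transcripts only. Of the Tnni3 TPM, 65.7% ± 8.05 belonged to protein-coding transcripts, against between 88.0% and 99.9% for the other members, and the rest to transcripts with a retained intron.

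Troponin T was shared by all 3 of its genes. Tnnt1 (chromosome 7, 4504570 to 4516382), the slow skeletal gene, had 281, 339 and 658 TPM in lines 66, 67 and 72 (mean 426 ± 203 TPM). Line 72 stood 1.94-fold above line 67 for Tnnt1. Tnnt3 (chromosome 7, 142498836 to 142516009), the fast skeletal gene, had 208, 402 and 389 TPM and a mean of 333 ± 108 TPM. Lines 67 and 72 were close to each other for Tnnt3, and line 66 was 1.93-fold below line 67. Tnnt2 (chromosome 1, 135836354 to 135852260), the gene of adult cardiac troponin T, had 237, 308 and 333 TPM and a mean of 292 ± 49.7 TPM. Among the troponin T genes, Tnnt1 held 39.6% ± 7.70, Tnnt3 31.7% ± 5.70 and Tnnt2 28.7% ± 4.28 of the TPM (SD, n = 3). By CPM the order turned, with Tnnt2 at 37.1%, Tnnt1 at 34.4% and Tnnt3 at 28.4%. On the TPM scale, Tnnt3 held 38.3% of troponin T in line 67, against 28.7% and 28.2% in lines 66 and 72, and the share of Tnnt1 was 47.7% in line 72.

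**Figure D1:**
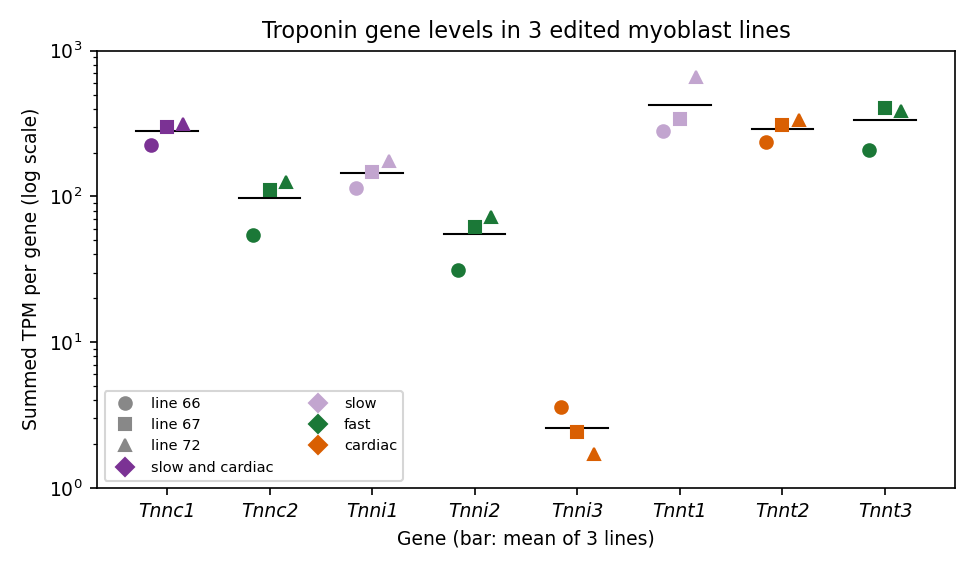
Summed TPM of each troponin gene (log scale) in lines 66, 67 and 72, with colours for the fast, slow and cardiac genes and a bar at the mean of the 3 lines. The 3 troponin T genes and Tnnc1 sit between 208 and 658 TPM, and Tnni3 sits at or below 3.58 TPM.

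Ranked by mean level, the order was Tnnt1, Tnnt3, Tnnt2, Tnnc1, Tnni1, Tnnc2, Tnni2 and Tnni3. Of 25510 genes with a TPM above 0 in any line, 98.7% lay below Tnnt1, 88.1% below Tnni2 and 56.6% below Tnni3. Neighbours in this order were compared within each line on the log2(TPM + 1) scale. Tnnt1 was above Tnnt3 in 2 of 3 lines (mean difference 0.32 ± 0.51, exact two-sided sign-flip permutation test, p = 0.5, adjusted p = 0.5). Tnnt3 was above Tnnt2 in 2 of 3 lines (0.14 ± 0.29, exact p = 0.5, adjusted p = 0.5). In both pairs the mean difference was smaller than its SD. The other 5 neighbour pairs kept their order in 3 of 3 lines, each with an exact p of 0.25, which is the smallest that 3 lines can give, and an adjusted p of 0.35. This test therefore cannot pass a threshold of 0.05 with 3 lines. Among these 5 pairs, Tnnt2 exceeded Tnnc1 by only 0.06 ± 0.02 on this scale, and Tnni2 exceeded Tnni3 by 3.92 ± 0.99.

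The slow gene exceeded the fast gene in every line for troponin C and troponin I, and in 2 of 3 lines for troponin T. Tnnc1 was 4.12, 2.69 and 2.51 times Tnnc2 in lines 66, 67 and 72, a mean log2 ratio of fast to slow of −1.60 ± 0.39 (exact sign-flip permutation p = 0.25, adjusted p = 0.375 over the 3 subunits). Tnni1 was 3.62, 2.39 and 2.44 times Tnni2, with a log2 ratio of −1.47 ± 0.34 (exact p = 0.25, adjusted p = 0.375). By CPM this ratio was −2.90. Line 66 had the largest excess of the slow gene for both subunits. For troponin T, Tnnt1 was 1.35, 0.845 and 1.69 times Tnnt3, with a log2 ratio of −0.32 ± 0.51 (exact p = 0.5, adjusted p = 0.5), so that line 67 had more fast than slow troponin T. Over all troponin TPM, the fast genes made up 29.4% ± 4.55, the slow genes including Tnnc1 52.1% ± 4.48, and the cardiac genes Tnni3 and Tnnt2 18.5% ± 2.34. Nearly all of the cardiac share was Tnnt2.

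**Figure D2:**
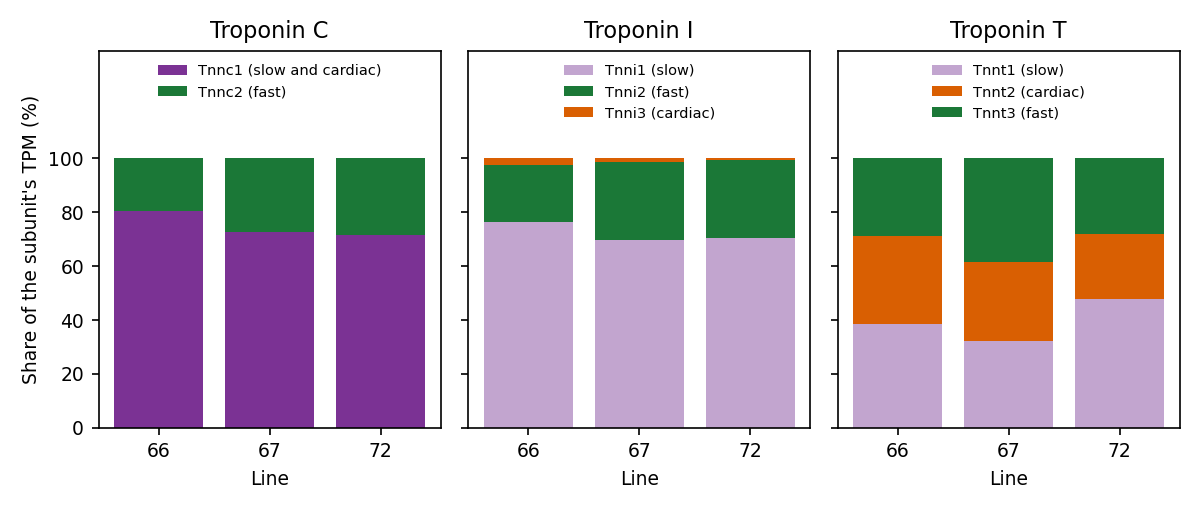
Share of each gene (percent) in the summed TPM of troponin C, troponin I and troponin T, by line. Tnnc1 and Tnni1 hold most of their subunit in every line, from 69.7% to 80.5%, and no troponin T gene exceeds 47.7%.

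The subunits were not at equal levels. Troponin T summed to 727, 1049 and 1380 TPM in lines 66, 67 and 72, troponin C to 280, 410 and 442 TPM, and troponin I to 149, 210 and 250 TPM. All troponin genes together summed to 1155, 1669 and 2072 TPM. Troponin T was 2.76 ± 0.314 times troponin C and 5.13 ± 0.334 times troponin I, and troponin C was 1.87 ± 0.0932 times troponin I (SD, n = 3). By CPM the ratio of troponin C to troponin I was 1.19 ± 0.0693. These are ratios of mRNA levels, whereas the 3 proteins are known to stand in equal numbers in the complex. The ratios varied less between lines than the totals did, since line 72 had 1.79 times the total of line 66.

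The members differed more between lines than most genes did. Of the 8428 genes whose mean reached 10 TPM, 208 (2.47%) had a highest line more than 2-fold above the lowest line. Of the 7 members above that mean, 3 were more than 2-fold apart, namely Tnnt1 (2.34-fold), Tnni2 (2.31-fold) and Tnnc2 (2.30-fold). The median coefficient of variation was 32.5% over the 7 members and 8.74% over all genes of that level, and that of each member exceeded the value of at least 83.8% of those genes. On counts scaled by edgeR's TMM, Tnni2 was 1.87-fold apart, while Tnnt1 and Tnnc2 were 2.18-fold and 2.09-fold apart. Without line 66, 0 of the 7 members were over 2-fold apart, beside 92 of all 8428 genes (1.09%). Without line 72, Tnnc2 alone of the members was, beside 115 genes (1.36%), so that the count of 3 members rests on line 66 together with line 72. Each line has a single library, so no test between lines was possible.

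Most members had the same order of lines. Among all genes of that level, 2476 of 8428 (29.4%) were lowest in line 66 and highest in line 72, and 6 of the 7 members were, with Tnnt3 highest in line 67. With scaling by TMM or DESeq2 size factors the count was 5, beside 17.7% and 18.4% of all genes, since Tnnc1 was then also highest in line 67 (112.3 scaled CPM in line 72 and 112.9 in line 67). The median log2 ratio of line 72 to line 66 was 0.90 over the members and 0.08 over all genes. Tnni3 went the other way, with line 72 at 0.478 times line 66. Median shifts of all genes on chromosomes 1, 2, 7 and 14, where the members lie, were within 0.06 of 0 on the log2 scale in every line.

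**Figure D3:**
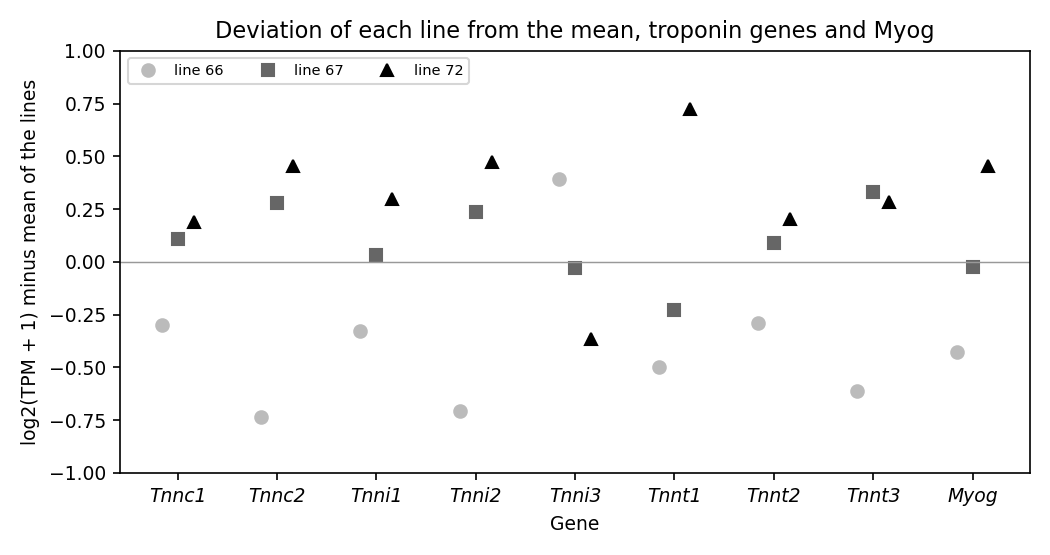
Deviation of each line from the mean of the 3 lines, in log2(TPM + 1), for the troponin genes and Myog. Line 66 is lowest for 7 of the 8 troponin genes and for Myog, and highest for Tnni3.

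Genes of early muscle differentiation had the members' order of lines. Myog, the transcription factor of myoblasts that enter differentiation, had 168, 222 and 310 TPM in lines 66, 67 and 72. Of 19 genes of differentiating muscle, 18 reached a mean of 10 TPM, and of these 16 were lowest in line 66 and highest in line 72 and 8 were over 2-fold apart. Over all genes of that level the shares were 29.4% and 2.47%. Mef2c, a partner of the myogenic factors, had 19.9, 39.9 and 48.8 TPM, and Mymk, which is needed for myoblast fusion, had 67.6, 106 and 119 TPM. Among its sarcomere genes, Myh3, the embryonic myosin heavy chain, had 204, 262 and 339 TPM, and Actn2, a Z-disc protein, had 30.5, 52.0 and 65.5 TPM. The exceptions were Neb, highest in line 67, and Chrng, the fetal acetylcholine receptor subunit, lowest in line 67. All 19 summed to 2571, 3428 and 4332 TPM. In a bulk sample, fewer differentiating cells and less RNA in each of them cannot be told apart, and the part of these genes' cells in the troponin values was not tested. The myoblast markers did not share this order as a group, since 3 of 10 were lowest in line 66 and highest in line 72, with 0 over 2-fold apart. Myod1, the factor that commits cells to muscle, had 791, 702 and 579 TPM in lines 66, 67 and 72.

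The 5 genes whose pattern over the 3 lines was nearest to the median pattern of the 7 members were Dclk1, Mybl1, Mymk, Ldb3 and Slc23a2. The measure was the root mean square distance of log2(TPM + 1), centred on the mean of the lines, and it lay between 0.0326 and 0.0353. Dclk1 had 25.2, 39.6 and 44.7 TPM, and Ldb3, a Z-disc protein, had 22.2, 33.9 and 38.3 TPM. Among the members themselves, Tnnt1 lay 0.314 from their median pattern.

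The partners of troponin on the thin filament fell into separate groups. The muscle actins had the members' order, with Acta1, the skeletal actin, at 350, 486 and 588 TPM, Actc1, the cardiac actin, at 281, 409 and 575 TPM, and Acta2, the smooth muscle actin, at 209, 292 and 581 TPM. Acta2 was close to Tnnt1 in shape, with line 72 well above the others. The tropomyosin genes, whose products troponin T binds, hardly differed in summed TPM, since Tpm1, Tpm2, Tpm3 and Tpm4 were between 1.01-fold and 1.14-fold apart. These sums were also high for Tpm3 (551 ± 6.03 TPM) up to Tpm1 (2064 ± 126 TPM). They cover all transcripts of a gene, and whether the forms that work with troponin differed between lines was not examined. Of the 19 genes of the thin filament list, 13 reached a mean of 10 TPM, of which 6 were lowest in line 66 and highest in line 72 and 3 were over 2-fold apart (Actc1, Acta2 and Nebl, the last highest in line 66). Over all genes of that level the shares were 29.4% and 2.47%. Among the genes of pointed-end proteins, Tmod3 and Lmod3 were the highest, with means of 52.7 and 24.3 TPM, and the other 5 had means between 0.220 and 8.90 TPM.

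The presence of Tnnt2 was set beside markers of heart muscle. Of 12 cardiomyocyte markers, 6 were at or under 3 counts in every line, of which Nkx2-5, Hand2, Myl7 and Nppa were listed at 0. The list summed to 30.2, 17.4 and 16.2 TPM, and most of it was Gata4 (22.1, 14.7 and 8.44 TPM) and Tbx20 (7.50, 1.38 and 7.09 TPM). Myh6, the cardiac myosin, was at or below 0.593 TPM, against 292 TPM for Tnnt2. Gata4, a transcription factor of the heart and other tissues, had the same order of lines as Tnni3, highest in line 66 and lowest in line 72, and its part in the Tnni3 values was not tested. Tnni3 overlaps Dnaaf3 on the same strand, which had between 4.26 and 5.75 TPM and was also highest in line 66. Of the Tnni3 words, 97.4% were in no other gene, and the part of Dnaaf3 in the Tnni3 values was not tested.

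The members of troponin I and T lie in 3 pairs, each with a troponin I gene beside a troponin T gene. Tnni1 and Tnnt2 lie 25364 bases apart on chromosome 1 with Lad1 between them, and Tnnt2 had 2.08, 2.10 and 1.89 times the TPM of Tnni1 in lines 66, 67 and 72. Tnni2 and Tnnt3 lie 54425 bases apart on chromosome 7 with Lsp1 and part of Prr33 between them. Prr33 overlaps Tnnt3 on the opposite strand and had at most 0.0736 TPM. Tnnt3 had 6.64, 6.56 and 5.37 times the TPM of Tnni2. Both ratios stayed within a narrow range although the levels themselves differed between lines. Tnni3 and Tnnt1 are 1922 bases apart on chromosome 7 with no listed gene between them, and Tnnt1 had 78.5, 140 and 385 times the TPM of Tnni3. The closest pair was thus the least alike, since its genes went in opposite directions from line 66 to line 72.

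Factors reported to act on troponin genes were read from a list of 16. Mef2a and Tead1 had 166 ± 5.14 and 60.9 ± 3.84 TPM. Sox6, which represses slow genes in fast fibres, had 1.96 ± 0.189 TPM, and Prdm1, a factor of slow fibre fate in fish muscle, had 3, 2 and 1 estimated counts. Of 12 such genes whose mean reached 10 TPM, 5 were lowest in line 66 and highest in line 72, and 2 were over 2-fold apart, Mef2c and the Tead cofactor Vgll2 (28.0, 15.6 and 43.9 TPM). Over all genes of that level the shares were 29.4% and 2.47%. Vgll2 was lowest in line 67, the line in which Tnnt3 exceeded Tnnt1, and highest in line 72, where Tnnt1 was highest, and its part in either was not tested.

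The TPM of a troponin gene is split over transcripts that share most of their sequence, so the split is an estimate. All 85 transcripts of the members had the same length in the deposited tables as in GENCODE M21. Reads that fall in shared words cannot be assigned to 1 transcript directly. Between the member genes the assignment is firmer, since the coding sequences of related members were between 69.9% and 72.1% identical, with no shared run over 22 bases. The words that Tnnc2 shares with Ube2c, given above, lie outside this comparison. At most 6 words of any member occurred in another member. Between the transcripts of a gene it is weaker, since the highest Tnnt3 and Tnnt2 transcripts had 0% of words of their own.

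Tnnt3 had 27 listed transcripts, of which 8 were at 0 in every line and 5 reached 5% of the gene's TPM. Tnnt3-204 had 55.8, 119 and 125 TPM in lines 66, 67 and 72, or 29.6% ± 2.69 of the gene (SD, n = 3). Tnnt3-215 followed with 21.9% ± 1.54, Tnnt3-222 with 19.4% ± 1.90, Tnnt3-202 with 9.79% ± 1.06 and Tnnt3-214 with 6.68% ± 3.34. Among these 5 transcripts, Tnnt3-214 was the exception to the gene's pattern, with 21.9, 20.3 and 17.4 TPM, highest in line 66. Tnnt3-214 and Tnnt3-215 each had 0% of words of their own, so this difference rests on how shared reads were divided between transcripts.

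The use of each Tnnt3 exon was taken as the percent of TPM with the exon among the protein-coding transcripts that span its place. The downstream exon of 41 bases was in 98.3%, 98.2% and 97.1% of the TPM in lines 66, 67 and 72, or 97.9% ± 0.672. The upstream exon made up the other 2.13% ± 0.672, which rests on 2.64, 5.49 and 8.78 TPM. Thus the form known from fetal and neonatal muscle was nearly the whole of it in each line. The exons nearer the 5′ end were of mixed use. The first exon of 18 bases was in 58.8% ± 1.90, the second in 79.9% ± 1.92, the first exon of 15 bases in 23.5% ± 4.48, the exon of 12 bases in 4.84% ± 0.649 and the second exon of 15 bases in 46.6% ± 2.23. All TPM without the second exon of 18 bases came from Tnnt3-222, a transcript of 642 bases. By estimated counts that exon was in 89.0%, 86.7% and 88.9% in lines 66, 67 and 72. The exon of 39 bases was in 45.5%, 38.7% and 41.3% of the TPM in lines 66, 67 and 72, or 41.8% ± 3.45. By estimated counts in place of TPM, which gives longer transcripts more weight, the exon of 39 bases was in 57.4%. The first exon of 15 bases was used most in line 66, at 28.7% against 21.4% and 20.5%, and that range of 8.16 percentage points was the widest over the lines of any alternative Tnnt3 exon. Tnnt3-214, which had 0% of words of its own, made up 21.9 of the 57.1 TPM with this exon in line 66 and 17.4 of 77.3 in line 72. The range therefore depends on how shared reads were divided.

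**Figure D4:**
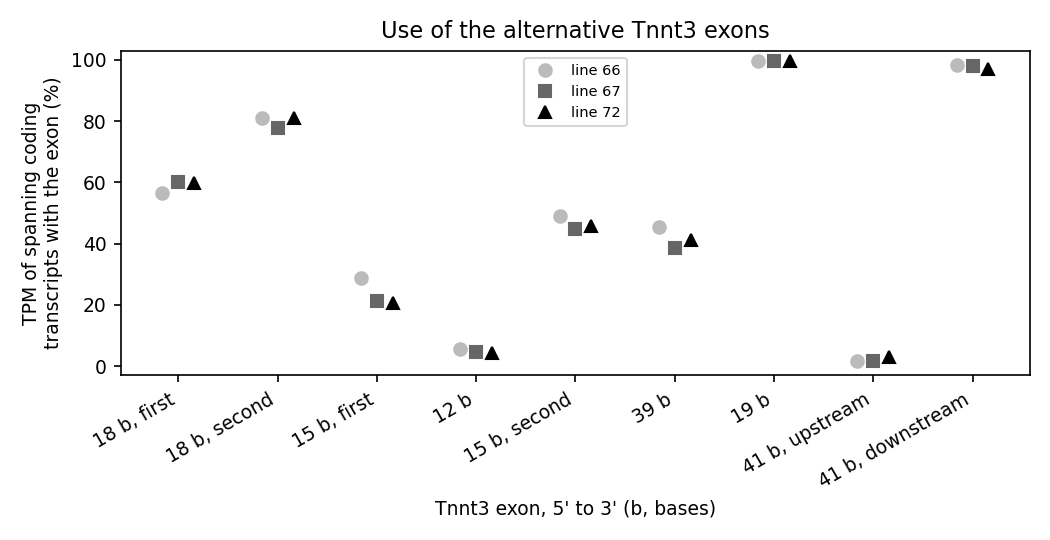
Percent of TPM with each alternative Tnnt3 exon among the protein-coding transcripts that span it, in order from the 5′ end, with a marker for each line. The lines are widest apart at the first exon of 15 bases, by 8.16 percentage points, and the paired exons of 41 bases stand at 2.13% and 97.9% on average.

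Tnnt2 was mostly Tnnt2-207, with 165, 218 and 231 TPM, or 70.0% ± 0.780 of the gene. Its exon of 30 bases, known as the exon of embryonic heart troponin T, was in 83.1%, 83.2% and 85.5% of the coding TPM in lines 66, 67 and 72 (83.9% ± 1.34). The exon of 12 bases was in 88.8% ± 1.20, and the exon of 9 bases near the 3′ end in 7.07% ± 1.51. By estimated counts, the exon of 12 bases was in 96.0%, 95.7% and 95.6%, and the exon of 30 bases in 91.0%, 89.1% and 90.8%. The TPM without the exon of 12 bases was 27.4, 30.5 and 30.9. Of it, 27.0, 26.8 and 25.9 TPM were Tnnt2-214, a transcript of only 433 bases that also counts as lacking the exon of 30 bases. Transcripts that start in the downstream first exons, from 135840699 to 135840875, held 84.2% ± 3.27 of the TPM, and those of the upstream first exons the rest.

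Tnnt1 had 5 transcripts over 5% of the gene, led by Tnnt1-208 with 105, 112 and 231 TPM (35.1% ± 2.21) and Tnnt1-206 with 61.8, 80.5 and 156 TPM (23.1%). Its exon of 33 bases was in 28.7%, 26.5% and 26.8% of the coding TPM in lines 66, 67 and 72, or 27.3% ± 1.17. An exon that follows it was used with 3 acceptor sites, giving 16, 19 or 22 bases, in 36.5%, 37.3% and 26.2% of the TPM, with SDs of at most 2.51 percentage points. The higher Tnnt1 level of line 72 was spread over these forms, since line 72 lay between the other lines in the share of the exon of 33 bases and of each acceptor form.

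The remaining members had simpler makeup or low levels. Tnnc1-202 held 88.0% ± 0.930 of Tnnc1, with Tnnc1-201, a retained-intron transcript, at 9.39% ± 0.960. Tnni1-207 held 82.0% ± 4.34 of Tnni1, and Tnni1-208 had 2.99, 6.72 and 21.9 TPM in lines 66, 67 and 72. Tnni2 was split over 4 transcripts, of which Tnni2-201 (732 bases) had 11.9, 16.2 and 13.7 TPM. The shorter Tnni2-205 (507 bases) had 7.53, 19.9 and 24.4 TPM, and Tnni2-207 (518 bases) 5.28, 13.2 and 21.1 TPM. Both are shorter than the coding sequence of Tnni2-201 (546 bases), so neither can hold all of it. By estimated counts, Tnni2-201 had 286, 355 and 303, Tnni2-205 97.5, 235 and 283, and Tnni2-207 68.2, 157 and 243. The longest of the 4, Tnni2-206 (768 bases), had 6.21, 11.1 and 11.9 TPM. Line 66 was the lowest for each of these transcripts, and Tnni2-201 was the one of the 4 that was highest in line 67.

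Splicing factors reported to act on troponin T were expressed, with 13 of 14 above a mean of 10 TPM and 0 of them over 2-fold apart between lines. Mbnl1 and Mbnl2, which favour adult exon choices, had 73.8 ± 9.57 and 159 ± 19.9 TPM. Celf1 and Celf2, which favour embryonic exon choices in Tnnt2, had 86.0 ± 9.62 and 113 ± 17.3 TPM. Ptbp1, a repressor of muscle exons, had 464, 323 and 336 TPM, and Rbfox1 had 46.6, 50.0 and 25.7 TPM. Of the 13, 4 were lowest in line 66 and highest in line 72, or about the share of all genes given above.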

How the data were processed

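RNA-seq libraries of 3 edited Dmdmdx; Pax7-nGFP myoblast lines (1 group, n = 3 lines) were used. Libraries were poly-A enriched and made with a stranded kit. The tables list 121798 transcripts. Their estimated counts were deposited by the authors, and in these a read that fits several transcripts is divided among them. The authors also deposited TPM, the estimated count per effective length scaled to 1000000 per library. The submitters' processing notes name bcl2fastq 2.20, fastp 0.20, kallisto 0.46.1 and GRCm39. The annotation release and the strand setting are not given in the sources used here. Estimated counts summed to 73274315 (line 66), 66972426 (line 67) and 70272367 (line 72).

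Transcripts were matched by identifier to GENCODE M21 (GRCm38), from which symbols, coordinates, exons and sequences were taken. No sequence was read by genome coordinates, since the builds differ. The 1112 unmatched transcripts (between 0.493% and 0.535% of counts) were left out. TPM and estimated counts were summed per gene. Levels were compared as log2(TPM + 1), and fold changes between lines as ratios of TPM with counts of genes over 2-fold limited to those whose mean reached 10 TPM. Within-line differences were tested by exact two-sided sign-flip permutation with Benjamini-Hochberg adjustment. Exon use was the share of TPM over protein-coding transcripts that span the exon. Shared sequence was counted as 31-base words on both strands.

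The genes named are the 8 members, their transcripts of at least 5% of the gene in at least 1 line, the 7 gene lists, and the 5 genes nearest to the members' pattern. Genes that overlap a member or lie between paired members were also named, chosen after their values were seen. Members and lists were chosen with earlier results of these data known. Alternatives were a pseudocount of 0.1, CPM (estimated counts scaled to a total of 1000000), protein-coding transcripts only, edgeR TMM and DESeq2 size factors on estimated counts rounded to whole numbers, filters at 1 TPM or at detection, a fold of 1.5, and leaving out each line. The order of lines on scaled counts and the subunit ratios by CPM were added after seeing the data. The scripts were tested on simulated counts. Software comprised R 4.3.3, DESeq2 1.42.0, edgeR 4.0.16, Biopython 1.88, scipy 1.17.1, pandas 2.3.3, numpy 2.4.6, Python 3.11.15 and matplotlib 3.10.9.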

Additional observations from a re-analysis of the deposited data

How the results depend on the processing

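No paired analysis was possible because the lines belong to 1 condition, so no replicate number is shared between groups, while genes were compared within each line. Of 208 alternative values, 167 stayed within the limits set for them and 41 moved. CPM, which is not corrected for length, lowered the median log2 level of the members from 7.63 to 6.61, the subunit totals to 132.8 (C), 111 (I) and 403 (T), the Tnni2 share of troponin I from 26.4% to 11.8% and the log2 ratio of fast to slow troponin I from −1.47 to −2.90. It raised the Tnnt2 share of troponin T from 28.7% to 37.1%, above Tnnt1 at 34.4%, and raised the median log2 level of the cardiomyocyte markers from 0.0263 to 0.0488. A pseudocount of 0.1 took the latter to −3.08. By estimated counts, Tnnt3-204 held 21.9%, Tnnt2-207 75.8% and Tnnt1-208 30.9% of their genes, and the Tnnt3 exon of 39 bases was in 57.4%, the Tnnt1 exon of 33 bases in 32.2% and the Tnnt2 exon of 30 bases in 90.3%. Over protein-coding transcripts only, Tnnt2-207 held 76.3%. At 1.5-fold, 5 of 7 members and 825 of 8428 genes (9.79%) were over the fold. With the filter at 1 TPM 4 of 8 members and 901 of 12528 genes (7.19%) were over 2-fold, and with no filter beyond detection 4 of 8 members and 9883 of 25510 genes (38.7%), against 208 of 8428 in the report. Leaving out each line in turn gave between 0 and 3 members over 2-fold, and between 92 and 124 genes. It also gave log2 ratios of fast to slow between −1.73 and −1.38 (C), −1.57 and −1.27 (I), and −0.60 and −0.10 (T). With 3 lines and no replicate of a line, what is a property of a line and what is a property of its library cannot be told apart, and depth limits Tnni3 and the markers near 0 most.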
